A study of Mus musculus with 14 samples.

Results

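The uncoupling protein family comprises Ucp1, Ucp2 and Ucp3, 3 of the 35275 genes in the table, chosen by gene symbol and followed through single animals. The tissue sequenced was brown fat from 14 C57BL/6 mice aged 8 weeks. Every animal carried floxed alleles of Lrpprc, a factor that stabilises mitochondrially encoded mRNA. Controls had these alleles alone (LrpprcFF), and knockouts also had a Cre recombinase driven by the Ucp1 promoter (LrpprcFF Ucp1-Cre), so deletion was directed to cells that use that promoter. The Cre line was not named in the labels, nor whether its construct carries sequence of Ucp1 or of genes beside it. Reads of any such sequence cannot be told apart from reads of those genes, which bears on the knockout values of Ucp1, Elmod2 and Tbc1d9. Housing was at 22 °C, here called room temperature (4 controls and 4 knockouts), or at 30 °C, thermoneutrality for a mouse (3 and 3). RNA came from homogenised whole tissue although the labels name brown adipocytes, so fewer cells of a type and less RNA per cell cannot be told apart. The values are FPKM, fragments per kilobase of gene, normalised to library size, which can be compared between genes.

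Uncoupling proteins are carriers of the mitochondrial inner membrane. Ucp1 is the protein that lets brown fat make heat: when noradrenaline raises cAMP and frees fatty acids, it returns protons to the matrix without ATP synthesis. Transcription of Ucp1 is driven by cAMP signalling, by Ppargc1a and by nuclear receptors, and is known to be higher in the cold. Ucp2 is expressed in many tissues and is abundant in macrophages and lymphocytes. Ucp3 is best known from skeletal muscle and brown fat, where it follows fatty acid use.

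The 3 genes are related but share no long identical stretch. All lie on the plus strand of GRCm38, in the GENCODE M21 annotation. Ucp1 (ENSMUSG00000031710) spans chr8:83290352-83298452 with 1 transcript of 1636 nt. Ucp2 (ENSMUSG00000033685) spans chr7:100493337-100502020 with 11 transcripts. Ucp3 (ENSMUSG00000032942) spans chr7:100472990-100486432 with 4 transcripts and ends 6.905 kb before Ucp2 begins. Their coding sequences have 307, 309 and 308 codons for Ucp1, Ucp2 and Ucp3. Identity over aligned coding bases was 75.2% between Ucp2 and Ucp3, 61.6% between Ucp1 and Ucp2, and 63.1% between Ucp1 and Ucp3. The longest identical run between any pair of their transcripts was 24 nt, between Ucp2 and Ucp3. The submitters' processing notes name mm9, so these GRCm38 positions describe the genes and not the mapping of the reads.

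The 250 bases before the RefSeq transcription start used for each gene are shown because the family members moved in opposite directions with temperature. They are RefSeq sequences on GRCm38.p6, plus strand, 5′ to 3′, with capitals marking matches to 4 motifs searched on both strands. They were the TATA-type motif (TATAAA, with TATATA counted as well), the GC box (GGGCGG), the nuclear receptor half-site (AGGTCA) and the cAMP response half-site (TGACG).
Ucp1 (chr8:83290098-83290347): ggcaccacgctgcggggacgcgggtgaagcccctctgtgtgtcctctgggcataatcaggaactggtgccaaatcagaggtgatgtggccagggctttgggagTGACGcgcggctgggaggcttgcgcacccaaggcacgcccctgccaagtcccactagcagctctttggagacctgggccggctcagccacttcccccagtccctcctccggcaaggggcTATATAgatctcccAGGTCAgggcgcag
Ucp2 (chr7:100493108-100493357): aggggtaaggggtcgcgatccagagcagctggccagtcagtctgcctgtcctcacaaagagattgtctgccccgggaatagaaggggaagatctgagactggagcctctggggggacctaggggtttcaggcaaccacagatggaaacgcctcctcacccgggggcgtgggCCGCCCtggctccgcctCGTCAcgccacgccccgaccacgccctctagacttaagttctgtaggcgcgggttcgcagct
Ucp3 (chr7:100472741-100472990): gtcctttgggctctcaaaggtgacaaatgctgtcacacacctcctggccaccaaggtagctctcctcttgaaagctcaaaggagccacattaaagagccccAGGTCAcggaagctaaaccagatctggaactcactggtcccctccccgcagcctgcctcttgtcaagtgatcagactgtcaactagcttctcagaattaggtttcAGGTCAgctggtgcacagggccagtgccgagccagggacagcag

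In these windows only Ucp1 had a TATA-type match, 28 to 23 bases before the start, and 15.6% of 32851 RefSeq windows of the same length held one. Only Ucp2 had a GC box, read as CCGCCC on the plus strand at 79 to 74 bases before the start (32.7% of windows). AGGTCA occurred 14 to 9 bases before the Ucp1 start and at both 149 to 144 and 44 to 39 bases before the Ucp3 start (14.02% of windows). TGACG occurred in the Ucp1 window at 147 to 143 bases, and as CGTCA in the Ucp2 window at 62 to 58 bases (17.8% of windows). A search for CCAAT on both strands found no match in the 3 windows (33.8% of windows held it). The Ucp2 window held 16 CG pairs, the Ucp1 window 12 and the Ucp3 window 3, against a median of 6. These matches describe letters in a window and not sites in use. Distances are to the RefSeq start, and starts of other transcripts were not searched. The Ucp2 window ends at 100493357, inside the GENCODE gene that begins at 100493337.

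Library depth, recovered from the steps between low values, was 15.9 to 21.3 M fragments. Ucp2 rested on the fewest fragments of the family, at least 150 in the lowest library, a counting error of 8.16% there. Lrpprc itself was at 23.2 to 47.1 FPKM in controls and 5.95 to 12.5 FPKM in knockouts, lower in each knockout group than in each control group. Xist was at most 0.0141 FPKM in the 8 animals at 22 °C and at least 9.01 FPKM in the 6 at 30 °C, while the Y-linked Ddx3y ran the other way (at least 14.5 and at most 0.0244 FPKM), so housing temperature and sex-linked expression cannot be told apart. Of the 4 controls at 22 °C, replicates 3 and 4 carry identifiers beginning with R, and all other animals identifiers beginning with E.

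Ucp1 was the most abundant family member in every animal, and its level was higher at 22 °C than at 30 °C in both genotypes. At 22 °C the 4 controls had 2599, 2141, 1161 and 1395 FPKM, and the 4 knockouts 3677, 1648, 1957 and 1656 FPKM. The genotypes overlapped throughout, with knockout replicate 1 above all others and the R-identified controls lowest. At 30 °C the 3 controls had 532, 996 and 738 FPKM and the 3 knockouts 299, 433 and 370 FPKM. Every knockout was below every control, and all 6 animals were below all 8 animals at 22 °C. Such separation was common: of the 13079 genes tested, 36.8% had genotype groups apart at 30 °C (14.6% with knockouts lower and 22.2% with knockouts higher) and 9.38% at 22 °C, and 43.5% in controls and 55.8% in knockouts had temperature groups apart, all after the scaling used for the tests below. Group means were 1824 ± 664 and 2235 ± 972 FPKM (SD, n = 4) in controls and knockouts at 22 °C, and 755 ± 233 and 367 ± 66.6 FPKM (SD, n = 3) at 30 °C. By abundance, Ucp1 was between the 5th and 44th gene at 22 °C, the 52nd to 112th in controls at 30 °C and the 144th to 244th in knockouts at 30 °C.

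Ucp2 ran in the opposite order. The 4 controls at 22 °C had 7.92, 11.2, 14.97 and 24.4 FPKM, and the 4 knockouts 26.5, 29.3, 21.2 and 23.4 FPKM. Control replicate 4 lay inside the range of the knockouts, and the other 3 controls lay below it. At 30 °C the 3 controls had 39.5, 46.1 and 53.4 FPKM and the 3 knockouts 150, 75.6 and 91.7 FPKM. Every knockout at 30 °C was above every control, and no animal at 22 °C reached the level of any at 30 °C, separations that 22.2% of genes (knockouts higher at 30 °C) and 23.6% and 31.7% of genes (lower at 22 °C in controls and in knockouts) showed as well. Mean levels were 14.6 ± 7.14 and 25.1 ± 3.58 FPKM (SD, n = 4) in controls and knockouts at 22 °C, and 46.3 ± 6.97 and 106 ± 39.3 FPKM (SD, n = 3) at 30 °C.

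The levels of Ucp3 lay closest together. At 22 °C the 4 controls had 61.0, 61.0, 79.7 and 48.9 FPKM and the 4 knockouts 81.5, 51.5, 82.7 and 79.0 FPKM. The genotypes overlapped, and knockout replicate 2 stood below the other 3 knockouts. At 30 °C the 3 controls had 39.0, 44.5 and 58.4 FPKM and the 3 knockouts 45.3, 37.2 and 33.97 FPKM. Knockout replicate 1 lay inside the range of the controls, so the groups overlapped, though not after the scaling used for the tests below. The order of means was 73.7 ± 14.9 (knockouts, 22 °C), 62.7 ± 12.7 (controls, 22 °C), 47.3 ± 9.97 (controls, 30 °C) and 38.8 ± 5.85 FPKM (knockouts, 30 °C), with SD over 4, 4, 3 and 3 animals.

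**Figure D1:**
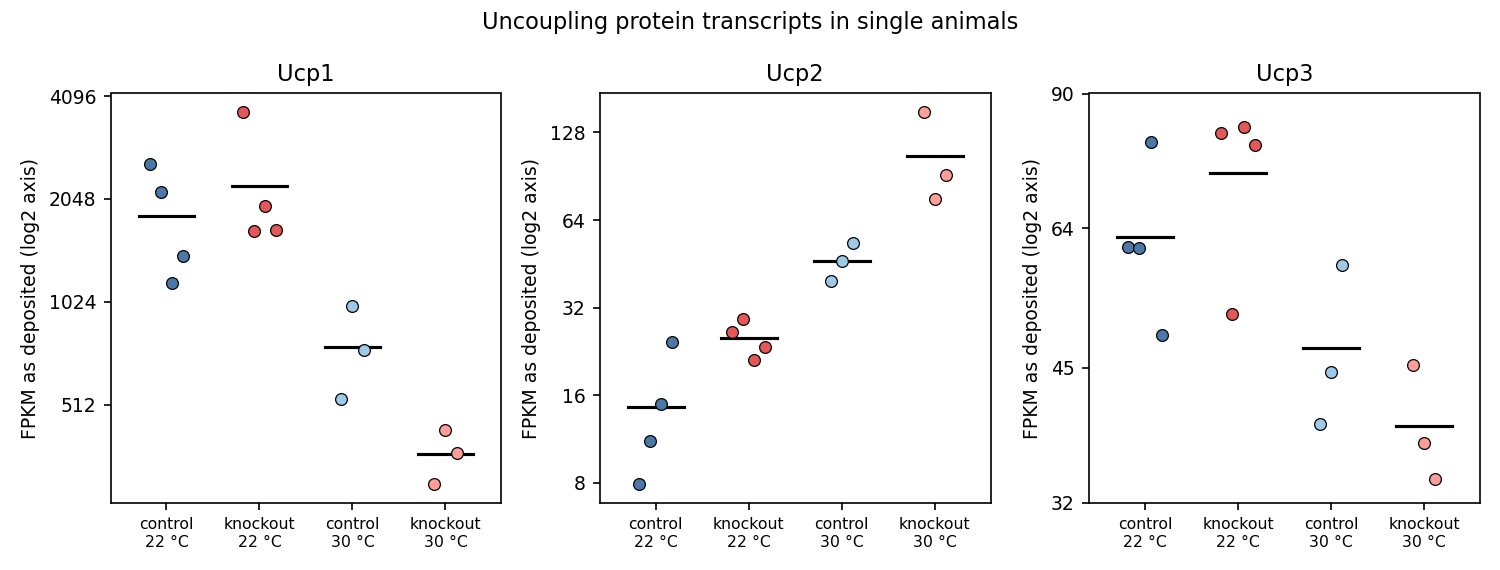
Deposited FPKM of Ucp1, Ucp2 and Ucp3 on log axes, with a point for each animal and a bar for the group mean, by genotype and housing temperature. Ucp1 is lowest and Ucp2 highest in the knockouts at 30 °C.

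For tests, libraries were scaled to a common median over nuclear genes, because all knockout libraries had lower scaling factors (0.835 to 0.955) than controls (1.06 to 1.22), and log2(scaled FPKM + 1) of 13079 genes was fitted with limma. A gene is called at an adjusted p below 0.05 over all genes. Differences below are on this log2 scale with their standard error (SE), and a fold is 2 to that power.

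Ucp1 was lower in knockouts than in controls at 30 °C, and not detectably different at 22 °C. The difference was -1.31 (SE 0.36, limma adjusted p = 0.0302), or 0.404 times the control level. At 22 °C it was -0.02 (SE 0.31, limma adjusted p = 0.982), with a 95% interval from -0.70 to 0.65. Thus 1 of 3 members was called at 30 °C, where 14.1% of all genes were called, and none of 3 at 22 °C, where 1.97% were. The 30 °C call rested on few animals. The limma adjusted p rose to 0.123 without control replicate 2 (-1.07), 0.0697 without control replicate 3 (-1.31), 0.110 without knockout replicate 1 (-1.19) and 0.0802 without knockout replicate 3 (-1.32). In those runs calls over all genes fell from 1845 to 907, 1276, 877 and 968. Quantile normalization (-1.04, adjusted p = 0.136) and dropping the filter on low values (adjusted p = 0.0641) also ended the Ucp1 call.

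Ucp2 was higher in knockouts at both temperatures without being called. The difference was 0.55 (SE 0.27, limma adjusted p = 0.34; 95% interval -0.02 to 1.13) at 22 °C and 0.83 (SE 0.31, limma adjusted p = 0.0934; 95% interval 0.16 to 1.496) at 30 °C. At 22 °C the value was 0.34 without control replicate 1, 0.80 without control replicate 4 and 0.99 (adjusted p = 0.0656) without the R-identified controls, none of them called. Both differences became calls in deposited FPKM without scaling (0.84, limma adjusted p = 0.0426, and 1.12, adjusted p = 0.0174). In that setting 3167 of 13079 genes were called higher in knockouts at 22 °C and 4280 at 30 °C. The median over all genes was 0.24 and 0.31 there. The 30 °C difference was also called without knockout replicate 2 (1.06, adjusted p = 0.0423), and fell to 0.52 without knockout replicate 1, which had the highest level (adjusted p = 0.352).

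Ucp3 was called in neither genotype comparison. The difference was -0.07 (SE 0.20, limma adjusted p = 0.894; 95% interval -0.50 to 0.35) at 22 °C and -0.56 (SE 0.23, limma adjusted p = 0.125; 95% interval -1.05 to -0.07) at 30 °C.

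The difference between the 2 genotype effects, 22 °C minus 30 °C, was called for none of the 3. It was 1.28 for Ucp1 (SE 0.48, limma adjusted p = 0.287, unadjusted 0.0186; 95% interval 0.25 to 2.31), -0.28 for Ucp2 (SE 0.41, adjusted p = 0.813) and 0.49 for Ucp3 (SE 0.30, adjusted p = 0.539). Across all genes 0% were called in this limma comparison, and 1694 of 13079 had an unadjusted p below 0.05. A genotype effect on Ucp1 that differs between temperatures is therefore not shown after adjustment.

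Each family member was called with temperature in at least 1 genotype. The 22 °C and 30 °C animals also differed throughout in the sex-linked Xist and Ddx3y. These differences therefore cannot be assigned to housing temperature rather than to sex. In controls, Ucp1 was 1.35 higher at 22 °C than at 30 °C (SE 0.34, limma adjusted p = 0.00824), or 2.55-fold, and Ucp2 was lower, at -1.605 (SE 0.29, adjusted p = 0.00152), or 0.329 times. In knockouts the Ucp1 difference was 2.63 (SE 0.34, limma adjusted p = 0.000101), or 6.19-fold, and the Ucp2 difference -1.88 (SE 0.29, adjusted p = 0.000274), or 0.271 times. Ucp3 was 0.99 higher at 22 °C in knockouts (SE 0.21, limma adjusted p = 0.00219), or 1.98-fold. In controls its difference was 0.50 (SE 0.21, adjusted p = 0.0785; 95% interval 0.04 to 0.96), which was called without control replicate 4 of the 22 °C group (0.64, adjusted p = 0.0282). So 2 of 3 members were called in controls, where 38.8% of all genes were, and 3 of 3 in knockouts, where 51.1% were.

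**Figure D2:**
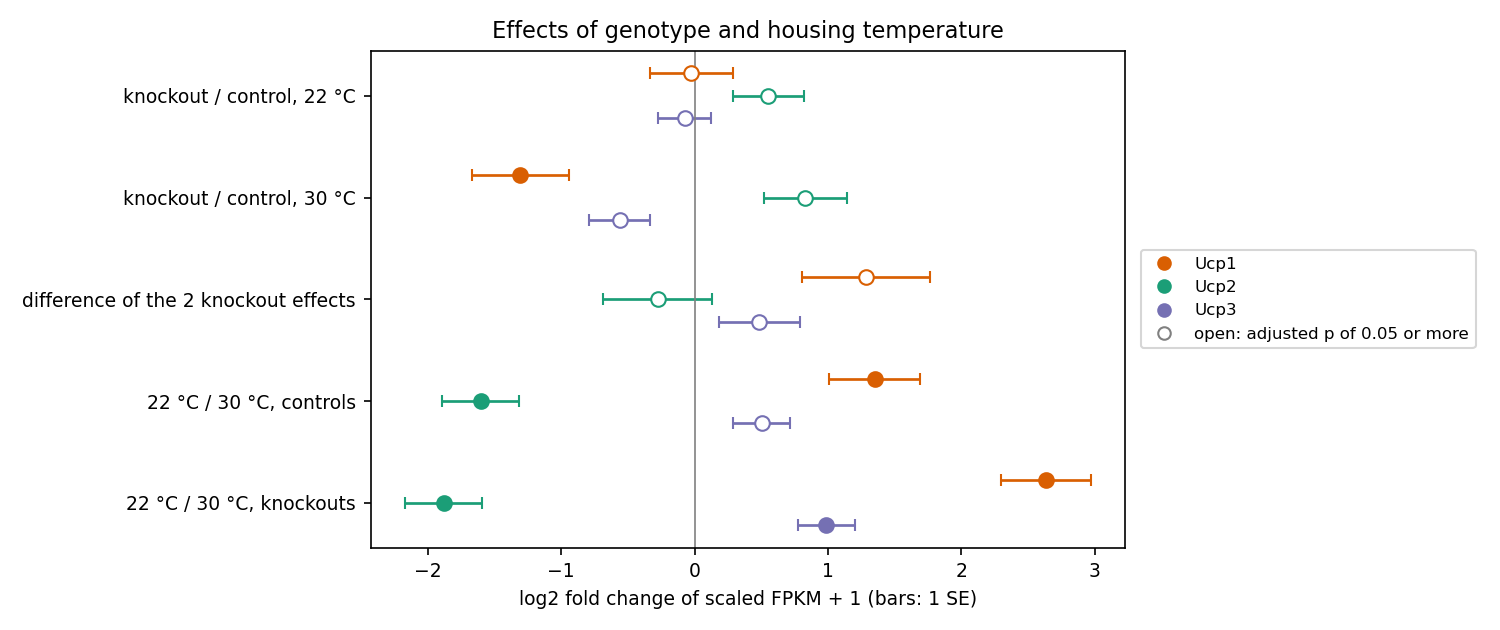
Differences in log2(scaled FPKM + 1) for Ucp1, Ucp2 and Ucp3 in the genotype, temperature and interaction comparisons, with bars for the standard error and filled points for limma calls. At 30 °C Ucp1 (-1.31) and Ucp2 (0.83) lie on opposite sides of 0.

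Ratios between members within a library do not depend on scaling. Ucp1 made up 92.5 to 97.4% of the family's summed FPKM in controls at 22 °C and 94.2 to 97.1% in knockouts there. Its share was 86.8 to 91.7% in controls at 30 °C and 60.5 to 79.3% in knockouts at 30 °C, a range below that of every other group. Ucp2 made up 13.9 to 30.4% of the family in those knockouts and 4.24 to 6.47% in their controls. Ucp1 exceeded Ucp2 by 57.2 to 328 times in controls at 22 °C, 56.2 to 139 times in knockouts at 22 °C, 13.5 to 21.6 times in controls at 30 °C, and 1.99 to 5.73 times in knockouts at 30 °C.

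The order of the minor members turned over between the animals at 22 °C and the knockouts at 30 °C, which also differed in Xist and Ddx3y. Ucp3 exceeded Ucp2 by 2.004 to 7.71 times in controls and 1.76 to 3.91 times in knockouts at 22 °C. In controls at 30 °C the pair stood level, with ratios of 0.965 to 1.09. In knockouts at 30 °C Ucp2 was the higher in 3 of 3 animals, with Ucp3 at 0.301 to 0.492 times its level.

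At 30 °C the 3 log2 ratios differed between genotypes with no overlap. Knockout minus control was 2.15 for Ucp2 over Ucp1 (4.44-fold), 0.74 for Ucp3 over Ucp1 and -1.42 for Ucp3 over Ucp2. Each had an exact two-sided permutation p of 0.1, the smallest that 3 against 3 animals allow, and 0.2 after adjustment over the 6 ratio tests. The third ratio is fixed by the first and second, so it is not a separate result. Of single genes, 36.8% had genotype groups apart at 30 °C. The share of gene pairs with ratios apart was not computed. At 22 °C the same differences were 0.61 (exact permutation p = 0.371), -0.05 (p = 0.914) and -0.66 (p = 0.229), all with overlapping groups, where 4 against 4 could reach 0.0286. Single animals moved these values: the first was 0.16 without control replicate 1 and 1.004 without control replicate 4, and the third -0.41 and -1.06. Without the R-identified controls they were 1.57 and -1.16.

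**Figure D3:**
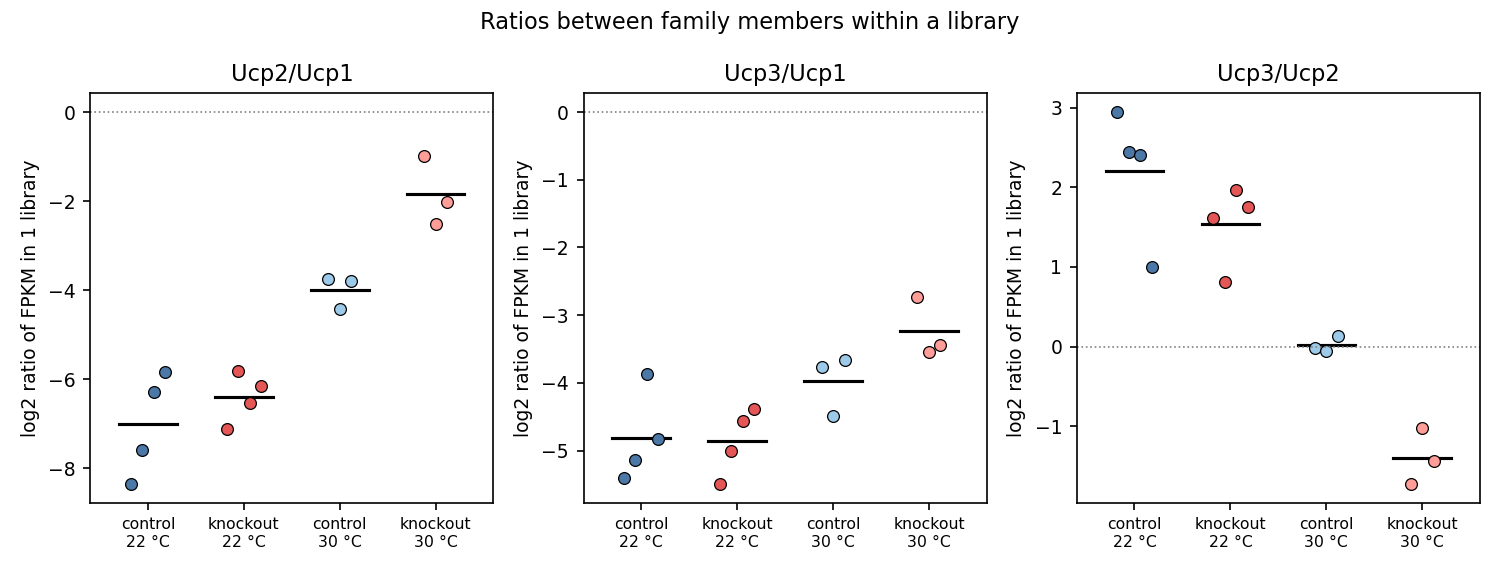
Within-library log2 ratios of Ucp2 to Ucp1, Ucp3 to Ucp1 and Ucp3 to Ucp2, with a point for each animal and a bar for the group mean. The ratio of Ucp3 to Ucp2 is above 0 in all 8 animals at 22 °C, near 0 in controls at 30 °C and below 0 in knockouts at 30 °C.

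Among markers of other cells, the macrophage list moved with the same groups. None of 5 endothelial markers was called in any comparison (median with genotype 0.004 at 22 °C and -0.28 at 30 °C). Macrophage markers, 12 genes such as Cd68 and Lyz2, summed to 59.0 to 102 FPKM in controls and 129 to 303 FPKM in knockouts at 22 °C, and to 149 to 526 and 982 to 2747 FPKM at 30 °C. At 30 °C, 11 of 12 were called higher in knockouts, against 8.82% of all genes (limma, median difference 2.13 against 0.06 over all genes), among them Lyz2, a lysozyme and the most abundant (2.52), and Mrc1, the mannose receptor and the least abundant in that group (1.36). At 22 °C none of 12 was called (median 0.59). None of the 12 was at 0 in any group. Ucp2 and these markers ranked the 3 knockouts at 30 °C alike, with sums of 2747, 982 and 1496 FPKM beside 150, 75.6 and 91.7 FPKM of Ucp2. The 3 controls there were also ranked alike (149, 195 and 526 beside 39.5, 46.1 and 53.4 FPKM). At 22 °C the orders differed in controls (59.0, 87.7, 72.2 and 102 beside 7.92, 11.2, 14.97 and 24.4 FPKM). They also differed in knockouts there (142, 303, 129 and 177 beside 26.5, 29.3, 21.2 and 23.4 FPKM). With group means subtracted, Ucp2 and the mean of the macrophage markers had a Pearson r of 0.69 over the 14 animals, which share libraries and scaling. The lymphocyte and pan-leukocyte list gave 0.53 and had 3 of 8 tested genes called higher at 30 °C, against 8.82% of all genes. These were Ptprc (1.22), Coro1a (1.43) and Laptm5 (2.02). The T and B cell genes Cd3e (0.36), Cd3g (0.40), Cd4 (0.38), Cd8a (0.003) and Cd79a (0.40) were not called there. The part of macrophages or lymphocytes in the Ucp2 levels was not tested.

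Brown adipocyte markers, 12 genes without Ucp1, were present in every group and summed to 6419 to 8206 FPKM in controls and 6601 to 9517 FPKM in knockouts at 22 °C. At 30 °C the sums were 5422 to 6758 FPKM in controls and 3104 to 4897 FPKM in knockouts. The sums consisted mostly of Cox8b, Cox7a1 and Cidea. At 30 °C these had means of 2928, 1518 and 1342 FPKM in controls and 1461, 998 and 994 FPKM in knockouts. In that comparison 4 of 12 were called lower, against 5.28% of all genes: Cox8b (-1.30) and Cox7a1 (-0.93), subunits of cytochrome oxidase, Otop1, a proton channel (-0.96), and Cidea, a lipid droplet protein (-0.78). None was called higher, and 4 of the other 8 had differences above 0, namely Dio2 (0.98), Ppargc1a (0.20), Ebf2 (0.18) and Zic1 (0.14). The median of the list was -0.34. Of 8 pan-adipocyte markers, 4 were also called lower there (median -0.55). At 22 °C, 1 of 12 brown adipocyte markers was called higher, Ppargc1a (1.14), and 2 of 8 pan-adipocyte markers lower, Adipoq (-0.79) and Cidec (-0.71). Over all genes 0.91% were called higher and 1.06% lower there. With group means subtracted, Ucp1 and the brown adipocyte markers had a Pearson r of 0.88 over 14 animals, and Ucp3 and the same markers 0.49. The part of adipocyte content in the Ucp1 difference was not tested.

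Skeletal muscle markers, the other known setting of Ucp3, varied widely between animals of one group. Their sum ran from 454 to 7084 FPKM in controls and 708 to 1734 FPKM in knockouts at 22 °C, and from 25.0 to 14849 and 2882 to 11148 FPKM at 30 °C. No muscle marker was called in either genotype comparison (0 of 11 tested). The animal with the highest muscle sum of its group had the highest Ucp3 in controls at 22 °C (79.7 FPKM) and in knockouts at 30 °C (45.3 FPKM), the lowest in controls at 30 °C (39.0 FPKM), and neither in knockouts at 22 °C (79.0 FPKM). Over 14 animals with group means subtracted, r was -0.31.

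**Figure D4:**
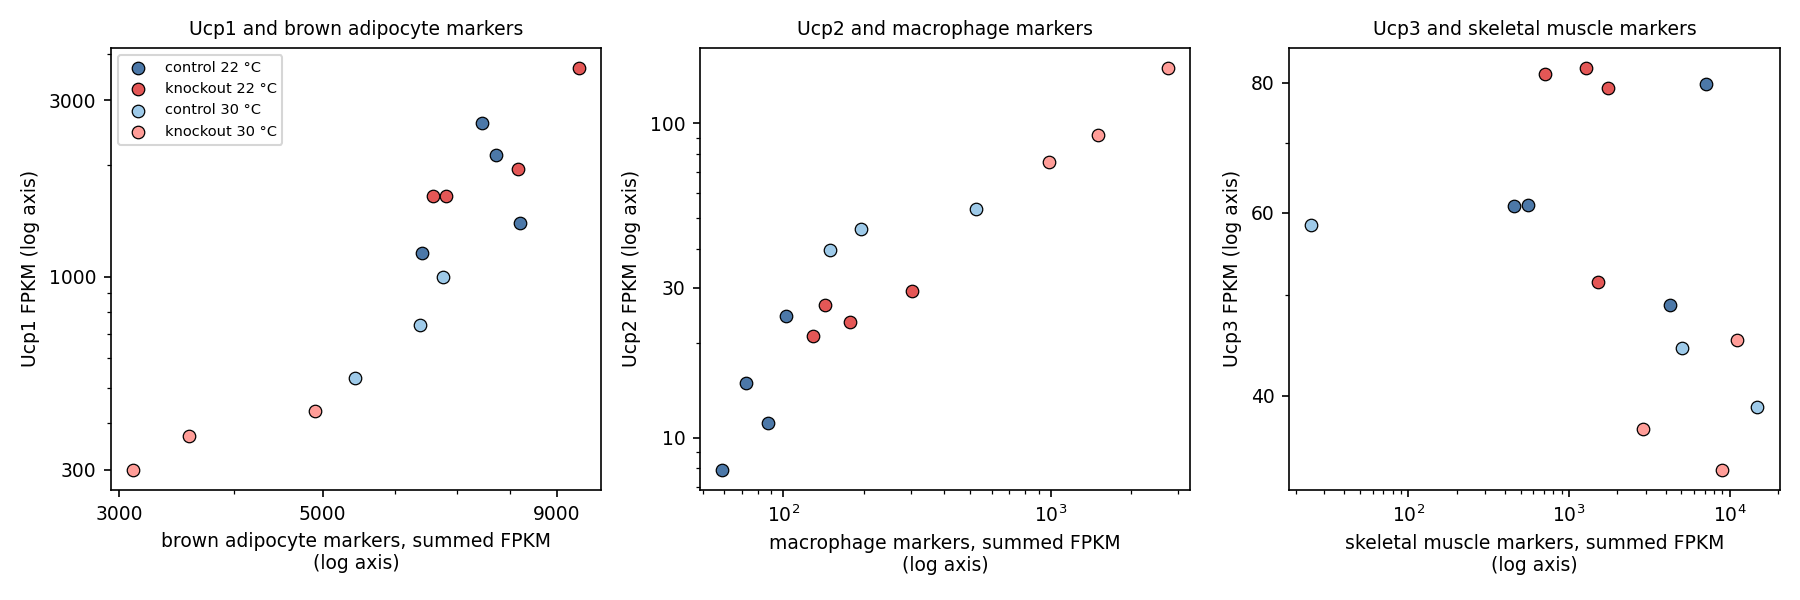
Deposited FPKM of Ucp1, Ucp2 and Ucp3 (vertical log axes) against the summed FPKM of brown adipocyte, macrophage and skeletal muscle markers (horizontal log axes), with a point for each of the 14 animals coloured by group. Macrophage sums are highest (982 to 2747 FPKM) and brown adipocyte sums lowest (3104 to 4897 FPKM) in the knockouts at 30 °C. Brown adipocyte sums consist mostly of Cox8b, Cox7a1 and Cidea.

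The list of regulators of Ucp1 transcription holds activators and also repressors such as Nrip1, Rb1 and Twist1, so its counts and medians have no single sense for Ucp1. Of 23 tested regulators, 1 rose at 22 °C, where 0.91% of all genes were called higher and 1.06% lower: Ppargc1a, the coactivator of mitochondrial biogenesis, which went from a mean of 13.1 to 36.4 FPKM (1.14, SE 0.26, limma adjusted p = 0.0411). At 30 °C, 2 rose, against 8.82% of all genes called higher and 5.28% lower: Zfp516, a zinc finger activator of Ucp1 (0.52, adjusted p = 0.0392), and the nuclear receptor Ppard (0.50, adjusted p = 0.0119). None fell in either comparison, and the list's median was 0.12 at 22 °C and 0.06 at 30 °C, against 0.00 and 0.06 over all genes. Without scaling, 8 and 7 of the 23 were called at 22 °C and 30 °C, beside 3248 and 4571 of all 13079 genes. The median of all genes moved there to 0.24 and 0.31. With temperature, 6 regulators were called higher and 2 lower at 22 °C in controls, where 18.2% and 20.6% of all genes were. In knockouts 10 were higher and 6 lower, against 21.8% and 29.4%.

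Input through adrenergic receptors and thyroid hormone had 1 call with genotype. None of 10 genes was called at 22 °C (median -0.04), the smallest p being those of the receptor gene Adrb1 (0.42, limma adjusted p = 0.593) and of Gnas, the stimulatory G protein subunit (-0.28). At 30 °C 1 of 10 fell, near the 5.28% of all genes called lower: Prkaca, the catalytic subunit of protein kinase A (-0.64, limma adjusted p = 0.0453; median of the list -0.34), and none was called in deposited FPKM, with quantile normalization or with equal nuclear totals. Dio2, which activates thyroid hormone, was 2.39 higher at 22 °C in controls (adjusted p = 0.00271) and 1.66 higher in knockouts (adjusted p = 0.0115). Adrb1 was lower at 22 °C, at -1.30 in controls and -1.48 in knockouts.

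PPAR targets, the fatty acid genes that share nuclear receptors with the family, were called in both directions. At 22 °C, 2 of 22 rose in knockouts, against 0.91% of all genes (median of the list 0.10): Acot2, a mitochondrial thioesterase, from 35.7 to 245 FPKM (2.11, limma adjusted p = 0.0169), and the hormone Fgf21, from 0.139 to 6.27 FPKM (2.08, adjusted p = 0.0407). At 30 °C, Acot2 rose (1.59, limma adjusted p = 0.0336), and 3 fell: Fabp4, a fatty acid binding protein (-0.85), the dehydrogenase Acadl (-0.81) and Cidea (-0.78), with a median of -0.21. Over all genes 8.82% were called higher and 5.28% lower there. With temperature, 7 were called higher and 2 lower at 22 °C in controls (median 0.37), where 18.2% and 20.6% of all genes were, and 15 higher and 1 lower in knockouts (median 0.86), where 21.8% and 29.4% were.

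Of 10 related inner-membrane carriers, none was called at 22 °C, the smallest p being those of Slc25a11 (-0.30, limma adjusted p = 0.109) and Slc25a4 (-0.52, adjusted p = 0.299). At 30 °C, 1 rose: Slc25a25, an ATP-Mg and phosphate carrier (1.75, limma adjusted p = 0.0113). Over all genes 8.82% were called higher and 5.28% lower there. Of the list, 2 fell: Slc25a20, the carnitine and acylcarnitine carrier (-0.75, adjusted p = 0.0498), and Slc25a11, the oxoglutarate carrier (-0.49, adjusted p = 0.00891).

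**Figure D5:**
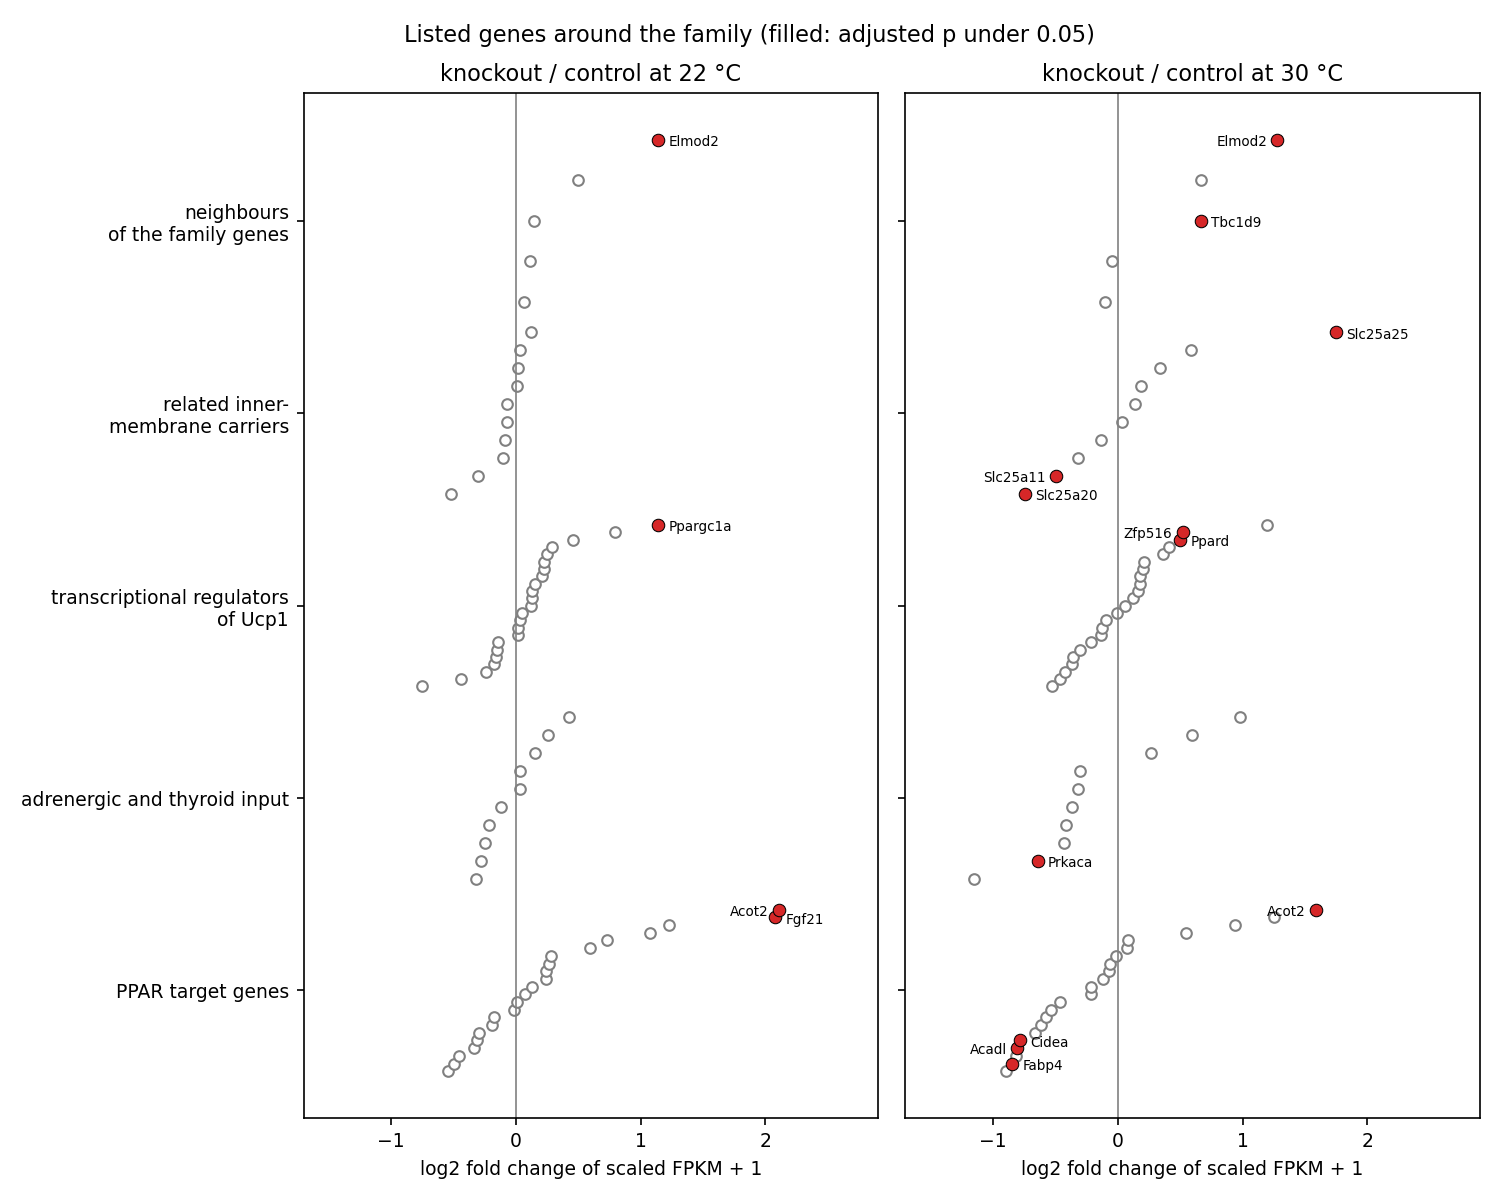
Knockout minus control differences in log2(scaled FPKM + 1) for each tested gene of the 5 pathway and neighbour lists at 22 °C and 30 °C, with called genes filled and named. Acot2 (2.11) and Elmod2 (1.14) are among those called at 22 °C.

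Of the 5 protein-coding neighbours of the family, 1 was called with genotype at 22 °C and 2 at 30 °C, all higher in knockouts, against 0.91% and 8.82% of all genes. Elmod2, a GTPase-activating protein gene 14.2 kb from Ucp1, had means of 5.90 ± 1.25 and 17.3 ± 2.83 FPKM (SD, n = 4) in controls and knockouts at 22 °C, and 3.10 ± 0.554 and 11.0 ± 2.797 FPKM (SD, n = 3) at 30 °C. Its ranges did not overlap between genotypes at either temperature, with knockouts higher, as in 4.85% of all genes at 22 °C and 22.2% at 30 °C. It was called higher in knockouts at 22 °C (1.14, SE 0.19, limma adjusted p = 0.00822) and at 30 °C (1.28, SE 0.22, adjusted p = 0.00323), the second being the direction opposite to Ucp1. Tbc1d9, 17.4 kb from Ucp1 on its other side, was called higher at 30 °C (0.67, limma adjusted p = 0.0341), and its difference at 22 °C was 0.50 (adjusted p = 0.145). Its means were low, 1.44 and 2.91 FPKM in controls and knockouts at 22 °C and 1.19 and 2.97 FPKM at 30 °C. At such levels the 1 added before the log2 understates differences. Like those of Elmod2, its ranges did not overlap between genotypes at either temperature. Elmod2 was also higher at 22 °C than at 30 °C, by 0.84 in controls and 0.70 in knockouts.

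On chromosome 7, none of the 3 neighbours was called with genotype. Dnajb13, on the minus strand, overlaps the end of Ucp2 by 304 bp, and whether counting used strand was not stated, so reads of the overlap cannot be assigned. Its means were 0.461 and 0.709 FPKM at 22 °C and 1.53 and 3.71 FPKM at 30 °C in controls and knockouts, well below Ucp2. It was lower at 22 °C in knockouts (-1.25, limma adjusted p = 0.00832). C2cd3, which ends 2.84 kb before Ucp3, was higher at 22 °C in controls (0.43) and knockouts (0.54), and Ppme1 was called in no comparison.

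The genes most like each member, by Pearson r of log2(scaled FPKM + 1) over the 14 animals, differed between members. These genes were picked for the highest r over all tested genes. How high such a picked r would reach by chance in 14 animals was not tested, so the names are a ranking only. With group means subtracted, Ucp1 was closest to Prelid3b (0.97), Ifi27 (0.95) and Ptdss2 (0.95). Ucp2 was closest to Gsdmd (0.98), Elovl1 (0.97) and Nrros (0.96), and Ucp3, less closely, to Dagla (0.88), Odf2l (0.86) and Rbm47 (0.85). With group means kept, the closest genes were March5 (0.98), Slc25a20 (0.98) and Slc25a51 (0.97) for Ucp1, Mcm3, Nrros and Clic1 (0.99 each) for Ucp2, and Odf2l (0.95), Alg9 (0.94) and Nat8l (0.92) for Ucp3. Those values also hold the differences between groups, which many genes shared. With temperature, 38.8% of all genes were called in controls and 51.1% in knockouts. Between members, with group means subtracted, r was -0.46 for Ucp1 and Ucp2, 0.17 for Ucp1 and Ucp3, and -0.06 for Ucp2 and Ucp3.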

How the data were processed

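The authors deposited FPKM per gene and library, and per the submitters' processing notes the genome build was mm9. The aligner, counting tool, annotation and use of strand are not given in the sources used here. Of 35275 Ensembl genes, 34490 matched a symbol in GENCODE M21 (GRCm38). The 13079 genes that reached an FPKM of 1 in 3 or more of the 14 samples were kept. Libraries were scaled by the median ratio over 10049 nuclear genes and analysed as log2(scaled FPKM + 1), which understates changes of low genes. A model with 4 group means was fitted in limma 3.58.1 (R 4.3.3; lmFit, eBayes with trend), with Benjamini-Hochberg adjustment over all genes. It was tested on simulated data. Ratios within libraries used exact two-sided permutation tests (scipy 1.17.1, Python 3.11.15), adjusted over 6. A low value of 1 to 10 fragments lay within 0.1 of a whole fragment in 91.9 to 93.5% of cases, which gave the depth. Fragment numbers and counting error cover counting error only.

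The labels give each animal its own identifier. They do not say that tissues were collected or processed separately beyond that, so p-values measure the spread between these animals. No column was left out. Family members, gene lists, markers and tests were chosen with earlier results of these data known. The genes named besides the family and Lrpprc were its listed neighbours, up to 4 called genes per direction, list and genotype comparison (the 2 with the smallest p where none was called), marker genes at the ends of their lists, and the 3 genes closest to each member by each correlation. Some markers, 3 repressors, and the temperature values of Dio2 and Adrb1, were named after their values were seen. Alternatives were other pseudocounts, filters, scalings, variance models, sample weights, fewer groups or animals and, chosen after seeing the data, a correction for GC content.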

Additional observations from a re-analysis of the deposited data

Results flagged for a closer look

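In 24 groups of 4 animals examined, 4 held an animal apart from the other 3 by Dixon's criterion, which chance alone meets in about 1 of 20 groups. Ucp1 was at 3677 FPKM in knockout replicate 1 at 22 °C, above the other 3, with a gap of 0.848 of the group's range. Ucp3 was at 51.5 FPKM in knockout replicate 2 at 22 °C, below the others (0.883 of the range). C2cd3 was at 2.94 FPKM in 1 knockout at 22 °C, below the others (0.915 of the range). Ppme1 was at 11.3 FPKM in 1 control at 22 °C, below the others (0.833 of the range).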

How the results depend on the processing

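The temperature calls of Ucp1 in both genotypes, of Ucp2 in both genotypes and of Ucp3 in knockouts held in every alternative run. Ucp1 ranged from 1.12 to 1.84 in controls and 2.37 to 2.86 in knockouts, Ucp2 from -2.04 to -1.32 and from -2.12 to -1.52, and Ucp3 in knockouts from 0.89 to 1.16. Where a call or direction changed otherwise, the cause was not tested. The Ucp1 genotype difference at 22 °C turned to 0.28 in deposited FPKM, 0.56 with quantile normalization and 0.12 with equal nuclear totals, and ran from -0.28 to 0.20 with animals left out. It was -0.52 without the R-identified controls and -0.43 with sample weights. At 30 °C it was no longer called without a filter (-1.31), with quantile normalization (-1.04) and without 4 of the 6 animals in turn (-1.54 to -1.07 over all 6). The Ucp2 difference at 22 °C was called in deposited FPKM (0.84) and with sample weights (0.81), and ran from 0.34 to 0.80 with animals left out and to 0.99 without the R-identified controls. At 30 °C it was called in deposited FPKM (1.12), with equal nuclear totals (0.98), with sample weights (0.83) and without knockout replicate 2 (0.52 to 1.06 over all 6). The Ucp2 interaction turned to 0.16 without the R-identified controls (-0.51 to 0.030 with single animals left out). The Ucp3 difference at 22 °C turned to 0.23 in deposited FPKM and 0.069 with equal nuclear totals (-0.21 to 0.10 with animals left out). Ucp3 in controls by temperature was called with sample weights (0.54), with GC correction (0.68) and without control replicate 4 at 22 °C (0.37 to 0.65 with animals left out). The ratio of Ucp3 to Ucp1 at 22 °C turned to 0.41 without the R-identified controls (-0.25 to 0.26 with animals left out).

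Called genes in lists also moved. For neighbours there were 3 at 22 °C in deposited FPKM and 1 at 30 °C with quantile normalization. For regulators there were 8 (deposited FPKM) and 2 (equal nuclear totals) at 22 °C, and 7 (deposited FPKM) and 1 (quantile normalization) at 30 °C. For adrenergic and thyroid input there was 1 at 22 °C without the R-identified controls, and 0 at 30 °C in deposited FPKM, with quantile normalization and with equal nuclear totals. For PPAR targets there were 5 (deposited FPKM), 4 (quantile normalization), 4 (equal nuclear totals) and 1 (without the R-identified controls) at 22 °C, and 2 (equal nuclear totals) at 30 °C. Tested genes numbered 5, 23, 10 and 22 in these lists, in the order given. Over all 13079 genes, calls at 22 °C were 3248 in deposited FPKM, 188 with quantile normalization and 461 with equal nuclear totals. Without the R-identified controls they were 279. At 30 °C they were 4571, 1782 and 2634 in deposited FPKM, with quantile normalization and with equal nuclear totals.

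Over all genes, calls at 22 °C were 258 and ranged from 70 to 3248, at 30 °C 1845 and 877 to 4571, for the interaction 0 and 0 to 213, and by temperature 5072 and 2927 to 7568 in controls and 6689 and 4250 to 7880 in knockouts. In deposited FPKM, 3167 of the calls at 22 °C were higher and 81 lower (119 and 139 after scaling), and at 30 °C 4280 and 291 (1154 and 691 after scaling). With equal nuclear totals they were 386 and 75, and 2225 and 409; with quantile normalization, 874 and 908 at 30 °C. By temperature, higher and lower calls were 2384 and 2688 in controls and 2850 and 3839 in knockouts, 1738 and 3200 in controls in deposited FPKM, and 2707 and 2305 in controls and 4168 and 2932 in knockouts with quantile normalization. The interaction could not be fitted with the compared groups alone. No paired analysis was possible because the labels give animal identifiers and no shared replicate numbers. Counting error was at most 8.16% for the family, against an SD between animals of 14.3 to 48.8% of the group mean.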
